A study of Caenorhabditis elegans with 12 samples.

Results

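The PAR polarity genes set up the front and rear of the Caenorhabditis elegans embryo, and their transcripts were followed here in single oocytes before fertilization. The 9 genes were par-1, par-2, par-3, par-4, par-5, par-6, pkc-3, cdc-42 and lgl-1, taken as a named list from the 46903 genes of the deposited count table by matching gene identifiers to symbols. All 9 were found, all 9 are protein-coding, and all 9 were among the 8718 genes kept by a filter on low counts. RNA was sequenced from 12 oocytes of adult wild-type worms that had received no treatment, with 4 oocytes at position -1, 4 at position -3 and 4 at position -5. By convention the oocyte nearest to the spermatheca is -1, so that it is the oldest of the 3 and the next to be ovulated. The groups therefore shared genotype, stage and treatment and differed in the place of the oocyte in the gonad. Each library was made from 1 oocyte, and the labels name no animals. With 2 gonad arms per hermaphrodite, and a single -1, -3 and -5 oocyte per arm, no fewer than 2 animals can have given the 4 oocytes of a group.

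In the one-cell embryo, PAR-3, PAR-6, the atypical protein kinase PKC-3 and the small GTPase CDC-42 occupy the anterior cortex, and PAR-1, PAR-2 and LGL-1 occupy the posterior cortex. Each set keeps the other away, largely through phosphorylation by PKC-3 at the front and by PAR-1 at the rear. PAR-4, the worm counterpart of the kinase LKB1, and PAR-5, a 14-3-3 protein that binds phosphorylated partners, are found at the cortex and in the cytoplasm with no fixed side. Polarity begins only after the sperm has entered. The early embryo makes almost no RNA of its own, so it depends on transcripts and proteins that the oocyte has stored.

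Libraries held 8358019 to 20446599 counts, and the level of a gene is given as CPM, counts per 1000000 counts of a library whose size was scaled by TMM (a factor that evens out differences in composition). CPM is a share of the sequenced RNA, so it does not give the number of molecules in an oocyte. The library kit sequences 3′ ends of polyadenylated RNA amplified by PCR, with no tag for single molecules, so the 95% Poisson intervals below cover counting error only. A count of 3 corresponded to between 0.146 and 0.336 CPM in a single library. Oocytes of position -3 included 2 that stood apart from the rest over all kept genes. On the first principal component, replicate 1 had a score of 90.1 and the 10 oocytes other than these 2 had scores from -30.6 to 9.53. On the second, replicate 3 had a score of 82.2 and those 10 had scores from -16.8 to 3.38. Detected genes numbered 8814 in replicate 1 and 8289 in replicate 3, and 9387 or more in the rest. The log2 ratios against position -3 are given below with and without them. Because each library is a single cell and no animals are named, a position was treated as 1 sample and no difference was tested.

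Transcripts of all 9 polarity genes were detected in all 12 oocytes, par-4 by a single read in 1 of them, and their pooled levels differed little between positions. In every comparison, 0 of 9 members had pooled levels more than 2-fold apart. Of all kept genes, 12.8% were past 2-fold in either direction between oocytes -1 and -5, 17.9% between oocytes -1 and -3 and 17.1% between oocytes -3 and -5. The oocytes of 1 position lay entirely above those of the other for 0 of 9 members in each comparison, against 5.53%, 6.43% and 6.01% of all kept genes. With 9 members, shares of this size correspond to few genes, so a count of 0 is not far from the background. The median log2 ratio of the members was -0.05 between oocytes -1 and -5, 0.13 between -1 and -3 and 0.06 between -3 and -5, and over all kept genes it was -0.01, 0.02 and -0.01. Without the 2 oocytes of -3 the members' median was -0.06 between -1 and -3 and 0.12 between -3 and -5. Together the 9 genes took between 0.137% and 0.250% of the counts of an oocyte.

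**Figure D1:**
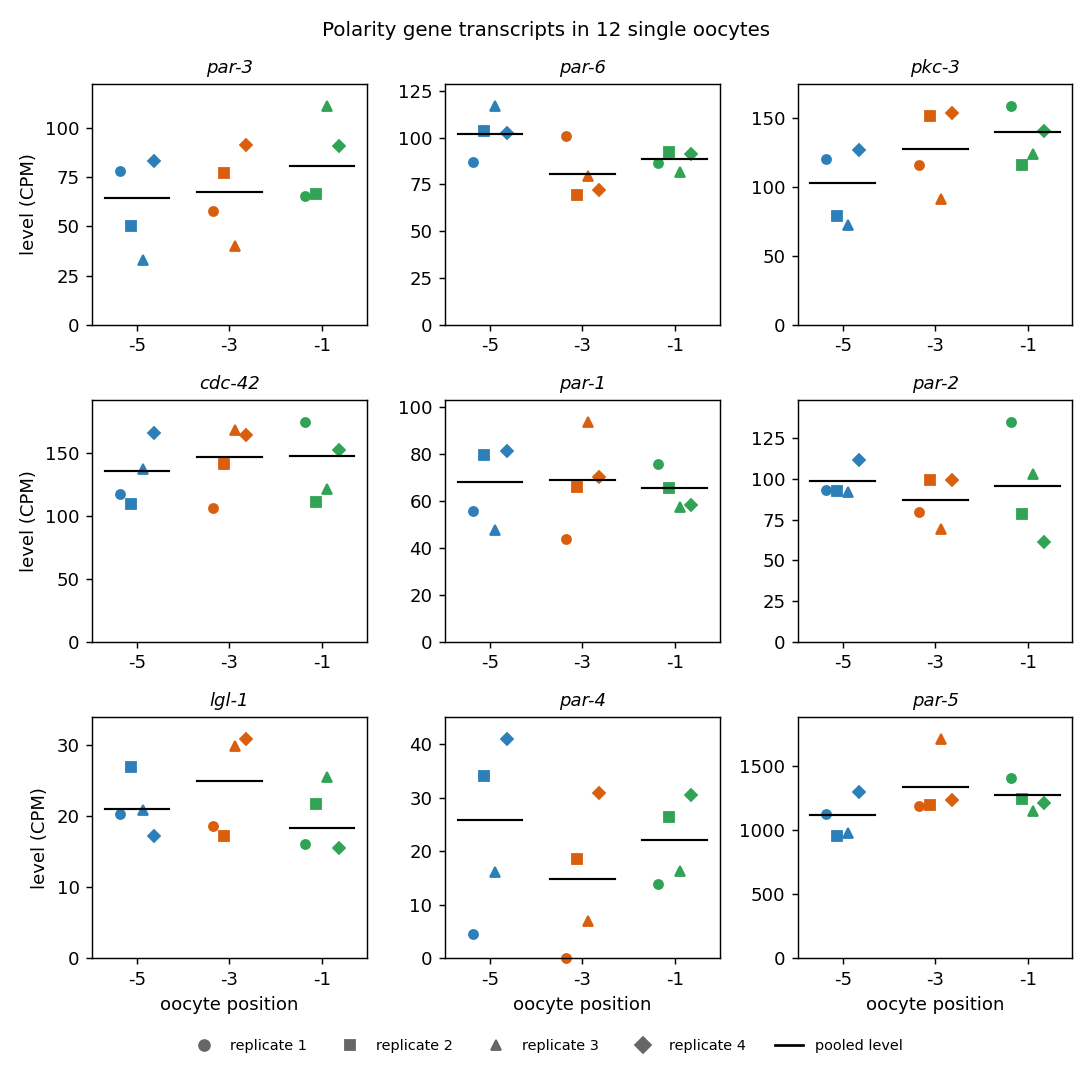
Level of each of the 9 polarity genes in each oocyte, in CPM on a linear axis from 0, by position; marker shapes are the replicate numbers and the black line is the pooled level of the 4 oocytes. The points of the 3 positions overlap for every gene, and par-4 runs from near 0 to 40.97 CPM.

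Among the anterior genes, pkc-3 had the largest difference between the oldest and the youngest oocytes. It encodes the kinase of the anterior complex and lies on chromosome II at 5380027 to 5384169 (WBGene00004034). Its level was 158.8, 115.7, 124.04 and 140.7 CPM in replicates 1 to 4 of oocyte -1, 115.6, 151.5, 90.9 and 153.1 CPM in those of oocyte -3, and 119.8, 78.5, 72.5 and 126.7 CPM in those of oocyte -5. Replicates 2 and 3 of oocyte -5 were the lowest of the 12, while its replicates 1 and 4 fell within the range of oocyte -1. The pooled level over position -1 was 139.8 CPM (95% interval 136.9 to 142.9), over -3 127.6 CPM (124.8 to 130.4) and over -5 103 CPM (100.3 to 105.8). Between -1 and -5 this is a log2 ratio of 0.44. A -1 oocyte was higher in 13 of the 16 pairs of one -1 and one -5 oocyte, and 66.8% of kept genes had a smaller ratio in that comparison. Leaving out single oocytes moved the ratio between 0.34 and 0.61. The log2 ratio of oocyte -3 to oocyte -5 was 0.31, or 0.55 without the 2 oocytes of -3 that stood apart, and that of -1 to -3 was 0.13, or -0.11 without them.

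The scaffold gene par-3, which lies on chromosome III at 5664234 to 5676732 (WBGene00003918) and whose protein clusters the anterior complex at the cortex, varied more between oocytes of a position than between positions. It stood at 65.5, 66.4, 111.3 and 90.5 CPM in oocyte -1, at 57.7, 77.2, 39.9 and 91.2 CPM in oocyte -3 and at 78.3, 49.95, 33.0 and 82.9 CPM in oocyte -5. Its lowest level, in replicate 3 of oocyte -5, and its highest, in replicate 3 of oocyte -1, differed 3.37-fold, and the positions overlapped. The pooled level over position -1 was 80.7 CPM (78.5 to 83.0), over -3 67.2 CPM (65.2 to 69.3) and over -5 64.3 CPM (62.1 to 66.4). The log2 ratio between -1 and -5 was 0.33, and between 0.17 and 0.55 when single oocytes were left out. Between -3 and -5 it was 0.06, or 0.40 without the 2 oocytes of -3, and between -1 and -3 it was 0.26, or -0.07 without them.

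The adaptor gene par-6, on chromosome I at 12669380 to 12674447 (WBGene00003921), links PKC-3 to CDC-42, and it ran the other way from pkc-3. It stood at 86.6, 92.2, 81.6 and 91.4 CPM in oocyte -1, at 100.8, 69.5, 79.6 and 72.1 CPM in oocyte -3 and at 87.0, 103.5, 117.1 and 102.7 CPM in oocyte -5. Replicates 2, 3 and 4 of oocyte -5 were the highest of the 12, and replicate 1 of oocyte -5 lay within the range of oocyte -1. The log2 ratio was -0.20 between -1 and -5 and -0.34 between -3 and -5, where a -3 oocyte was the higher in 1 of 16 pairs. That 1 pair held replicate 1 of oocyte -3, one of the 2 that stood apart. Without it the -3 oocytes all lay below those of -5 and of -1. Without both oocytes the log2 ratio was -0.53 between -3 and -5 and 0.33 between -1 and -3, where it was 0.14 with them. These levels of par-6 were also apart between -3 and the other positions when library sizes were not scaled. They were apart between -5 and both others without replicate 1 of oocyte -5. With fewer oocytes a gene lies apart more easily, and no share of all kept genes was computed for these settings.

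The GTPase gene cdc-42, on chromosome II at 7616452 to 7618245 (WBGene00000390), acts in cortical actin as well as in the anterior complex. It stood at 174.2, 111.2, 121 and 152.5 CPM in oocyte -1, at 106.1, 140.9, 168.4 and 164.3 CPM in oocyte -3 and at 117.1, 109.5, 137.0 and 166.0 CPM in oocyte -5. Each position spanned most of the range of the 12 oocytes. The pooled levels were 147.7, 146.6 and 135.3 CPM, and the log2 ratio between -1 and -5 was 0.13, between -0.01 and 0.30 when single oocytes were left out. Without the 2 oocytes of -3 the log2 ratio of -1 to -3 was -0.06, where it was 0.01 with them, and that of -3 to -5 was 0.19, where it was 0.12.

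Of the posterior genes, par-2 encodes a RING finger protein that binds the rear cortex and protects PAR-1 there. It lies on chromosome III at 1081402 to 1095073 (WBGene00003917). Its level was 134.9, 78.7, 103.0 and 60.9 CPM in oocyte -1, 79.8, 99.1, 69.5 and 99.2 CPM in oocyte -3, and 93.3, 92.3, 91.7 and 111.4 CPM in oocyte -5. The -1 oocytes held both the highest and the lowest level of the 12, and the -5 oocytes were close together except for replicate 4. The log2 ratio between -1 and -5 was -0.05 and turned with the oocytes used, being -0.39 without replicate 1 of oocyte -1 and 0.19 when its replicate 4 was left out. Between -1 and -3 it was 0.14, or -0.04 without the 2 oocytes of -3, and it lay between -0.21 and 0.38 when single oocytes were left out. Between -3 and -5 it was -0.19, or -0.01 without them.

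The kinase gene par-1, on chromosome V at 14112039 to 14145411 (WBGene00003916), had nearly the same pooled level at each position. It stood at 75.9, 65.4, 57.5 and 58.3 CPM in oocyte -1, at 43.7, 66.0, 93.6 and 70.3 CPM in oocyte -3 and at 55.7, 79.7, 47.5 and 81.2 CPM in oocyte -5. The lowest and the highest of the 12 were the 2 oocytes of -3 that stood apart. The pooled levels were 65.5 CPM (63.4 to 67.5), 68.9 CPM (66.9 to 71.0) and 68.2 CPM (66.0 to 70.5), and the log2 ratio was -0.06 between -1 and -5. Between -1 and -3 it was -0.07, or -0.05 without those 2 oocytes, and between -3 and -5 it was 0.01, or -0.01 without them.

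LGL-1 acts at the rear cortex alongside PAR-2 and is itself a target of PKC-3. Its gene, on chromosome X at 864925 to 871089 (WBGene00018987), stood at 16.1, 21.7, 25.5 and 15.5 CPM in oocyte -1, at 18.6, 17.2, 29.9 and 30.9 CPM in oocyte -3 and at 20.4, 27.0, 20.9 and 17.2 CPM in oocyte -5. The pooled level over position -1 was 18.3 CPM (17.2 to 19.4), over -3 25.03 CPM (23.8 to 26.3) and over -5 21.01 CPM (19.8 to 22.3), and the oocytes of the positions overlapped. The log2 ratio of -1 to -3 was -0.45, between -0.55 and -0.29 when single oocytes were left out and -0.47 without the 2 that stood apart. The log2 ratio of -3 to -5 was 0.25, or 0.28 without them. The end of this gene lies 828 bases farther downstream in a later annotation than in the count table, so its 3′ reads may be only partly counted.

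PAR-5 is needed to keep the anterior and posterior sets apart, and par-5, on chromosome IV at 11820505 to 11821917 (WBGene00003920), supplied most of the reads of the 9 genes. It held 66.5% of their summed counts, and between 62.5% and 74.8% in single oocytes. Its level was 1409.5, 1246, 1155 and 1212 CPM in oocyte -1, 1193, 1195, 1715 and 1240 CPM in oocyte -3, and 1132, 959.6, 979.3 and 1302 CPM in oocyte -5. Replicate 3 of oocyte -3 was the highest of the 12, and replicates 2 and 3 of oocyte -5 were the lowest. The pooled level over position -1 was 1277 CPM (1268 to 1286), over -3 1341 CPM (1332 to 1350) and over -5 1117 CPM (1108 to 1126). The log2 ratio between -1 and -5 was 0.19, and a -1 oocyte was higher in 13 of 16 pairs. Without replicate 4 of oocyte -5, the -5 oocytes lay below all oocytes of -1 and of -3. The share of all kept genes apart in that smaller set was not computed, and fewer oocytes lie apart more easily. The log2 ratio of -3 to -5 was 0.26, or 0.12 without the 2 oocytes of -3, and that of -1 to -3 was -0.07, or 0.08 without them. The second 14-3-3 gene, ftt-2, is related in sequence, and reads that fit both genes were not counted for either, so the level of par-5 is uncertain to that extent.

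**Figure D2:**
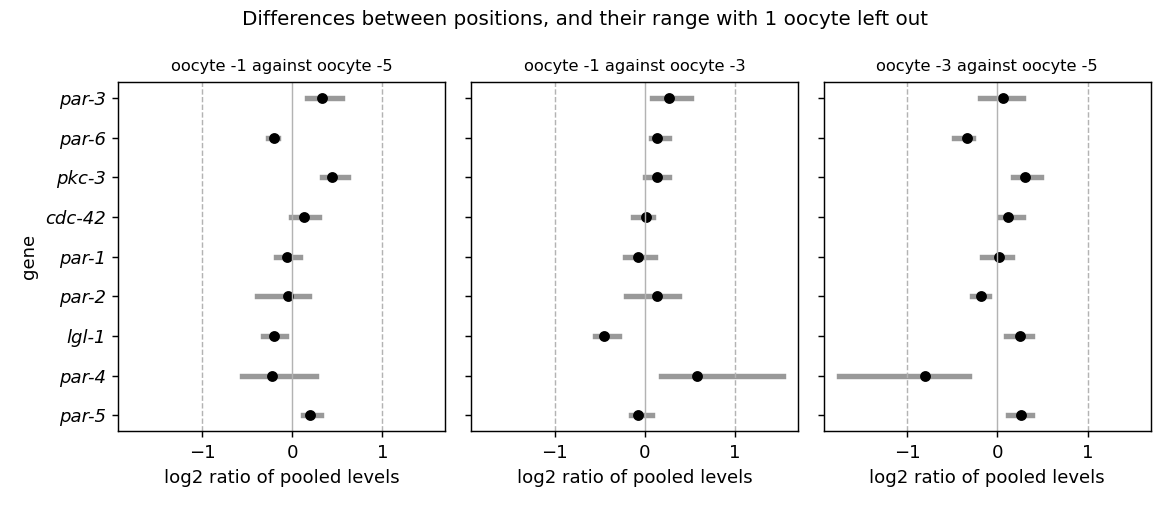
Log2 ratio of pooled levels for each polarity gene in the 3 comparisons, with black points for all oocytes and grey bars for the range when any 1 oocyte is left out; dashed lines mark 2-fold. The points lie inside the dashed lines for all 9 genes, and the bar of par-4 passes them where position -3 is compared.

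Of the 9 genes, par-4 varied most between oocytes and was nearly absent from 1 of them. Its kinase is needed for the asymmetric divisions of the embryo and acts with a pseudokinase and a scaffold of the MO25 family. Its gene lies on chromosome V at 18098676 to 18106868 (WBGene00003919) and stood at 13.9, 26.5, 16.3 and 30.5 CPM in oocyte -1. In oocyte -3 its level was 0.0645, 18.5, 6.88 and 30.8 CPM, and in oocyte -5 it was 4.52, 34.1, 16.1 and 40.97 CPM. The value of 0.0645 CPM, in replicate 1 of oocyte -3, was 1 read in a library of 19430838 counts, and the next lowest oocyte had 57 reads. Every position had an oocyte with around 30 CPM or more and one with under 14 CPM, and the positions overlapped. The coefficient of variation over the 12 oocytes was 64.0%, higher than that of 98.3% of the 5185 genes that averaged 20 CPM or more, and it was 47.9% without the 2 oocytes of -3. The mean of par-4 over the 12 oocytes was 19.9 CPM, just under that limit, so its place is against genes of slightly higher levels.

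The ratios of par-4 depended on the oocytes used. The pooled level over position -1 was 22.0 CPM (20.9 to 23.3), over -3 14.8 CPM (13.9 to 15.8) and over -5 25.8 CPM (24.5 to 27.2). The log2 ratio of -3 to -5 was -0.80, the only ratio of a member past 1.5-fold, with 0, 0 and 1 of 9 members past it in the comparisons of -1 with -5, -1 with -3 and -3 with -5. Of all kept genes, 24.5%, 36.5% and 34.2% were past 1.5-fold in these comparisons. It was 0.00 without the 2 oocytes of -3, -0.41 without replicate 1 of oocyte -3, -1.76 without its replicate 4 and -1.13 without replicate 1 of oocyte -5. The log2 ratio of -1 to -3 was 0.57, with 0.18 without replicate 1 of oocyte -3, 1.53 without its replicate 4 and -0.23 without the 2 oocytes that stood apart. With oocytes weighted equally on the log2(CPM + 1) scale it was 1.35, and -1.18 for -3 against -5. Between -1 and -5 it was -0.23, which became -0.56 when replicate 1 of oocyte -5 was left out and 0.26 when replicate 4 was.

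Low values of this kind were more frequent in the oocytes that stood apart. The 1335 genes read here had, like par-4, a mean of 15 to 40 CPM over all oocytes but replicate 1 of oocyte -3. Of these, 36 (2.70%) were under 1 CPM in that oocyte and 22 (1.65%) in replicate 3 of oocyte -3, against 0 to 6 in the other 10. Every oocyte except replicate 1 of oocyte -3 thus helped to choose the genes. This lowers the counts of those oocytes, so the 36 is not strictly alike to them. Genes for the partners of PAR-4 were then read in the same oocytes, a choice made after their values were seen. The scaffold gene mop-25.3 had 4 reads, 0.258 CPM, in replicate 1 of oocyte -3 and 27.3 to 54.4 CPM elsewhere. Its relative mop-25.1 stood at 2.71 and 3.16 CPM in replicates 1 and 3 of oocyte -3 and at 8.72 CPM or more elsewhere. The third gene of that family, mop-25.2, was not low there, at 24.2 and 37.6 CPM in replicates 1 and 3 of oocyte -3 and 17.8 to 48.3 CPM in the others. The pseudokinase gene strd-1 was at 67.9 CPM in replicate 1 of oocyte -3, within the range of the other oocytes. The cause of these low values was not tested.

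**Figure D3:**
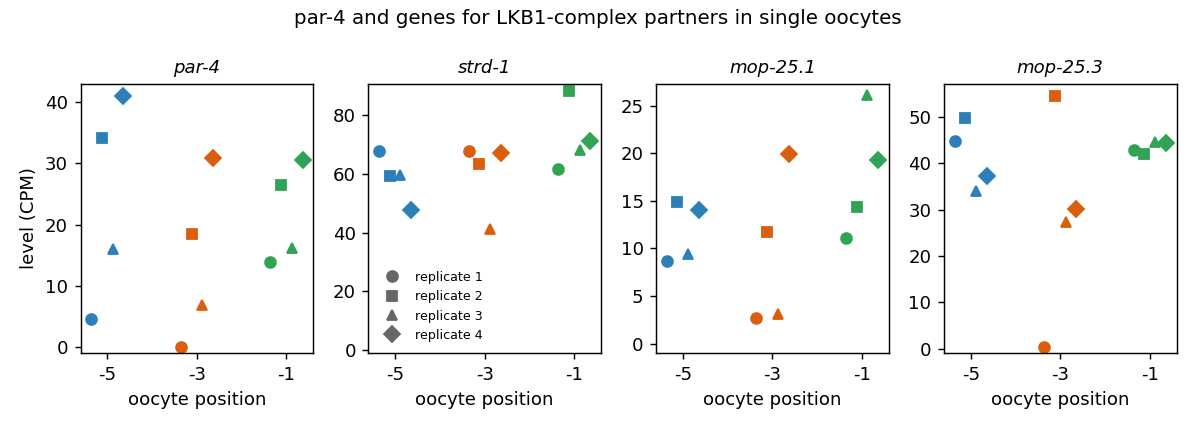
Level of par-4 and of 3 genes for partners of the LKB1 kinase in each oocyte, in CPM on linear axes, by position and replicate. In replicate 1 of oocyte -3 (orange circle) par-4 and mop-25.3 lie near 0, while strd-1 is at 67.9 CPM.

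The anterior and posterior sets were compared within oocytes, since a ratio of counts in 1 library does not depend on how libraries are scaled. The signs of pooled ratios do depend on it. Between -1 and -5, with TMM scaling, 3 of the 4 anterior genes had positive log2 ratios and 3 of the 3 posterior genes had negative ones. All lay within -0.20 to 0.44. Of all kept genes, 49.0% were higher and 51.0% lower. The ratios of par-1 and par-2 were -0.06 and -0.05. Unscaled library sizes moved the median of all kept genes from -0.01 to 0.07 there, so the signs of par-1 and par-2 turn with the scaling. The mean log2 ratio of the anterior genes less that of the posterior genes was 0.28 between -1 and -5, 0.26 between -1 and -3 and 0.01 between -3 and -5. Without the 2 oocytes of -3 it was 0.21 between -1 and -3 and 0.06 between -3 and -5. It rested partly on replicate 4 of oocyte -1, without which it was 0.10 between -1 and -5 and 0.09 between -1 and -3. In single oocytes, the mean log2(CPM + 1) of the anterior genes less that of the posterior genes was 1.01, 0.95, 1.004 and 1.57 in oocyte -1. It was 1.17, 1.07, 0.52 and 0.91 in oocyte -3 and 1.04, 0.48, 0.79 and 1.08 in oocyte -5. The medians were 1.004, 0.99 and 0.92, and the positions overlapped.

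Within the anterior set, the kinase and its adaptor varied against each other. The ratio of pkc-3 counts to par-6 counts was 1.83, 1.25, 1.52 and 1.54 in oocyte -1, 1.15, 2.18, 1.14 and 2.12 in oocyte -3 and 1.38, 0.759, 0.619 and 1.23 in oocyte -5. Replicates 2 and 3 of oocyte -5 were the only oocytes in which par-6 had more reads than pkc-3, and the positions overlapped. The ratio of par-3 to pkc-3 counts was steadier, between 0.412 and 0.897, with medians of 0.609, 0.505 and 0.645 at -1, -3 and -5. The ratio of par-2 to par-1 counts had medians of 1.49, 1.46 and 1.52 and was over 1 in 11 of the 12 oocytes. Over the 12 oocytes, the 36 pairs of members had a median Pearson correlation of log2 levels of 0.06, from -0.65 for par-6 with pkc-3 to 0.80 for par-3 with pkc-3. Without the 2 oocytes of -3 these 2 pairs had correlations of -0.79 and 0.78. Points of such a correlation share the library and its scaling, and the pairs of genes printed were chosen after their values were seen.

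**Figure D4:**
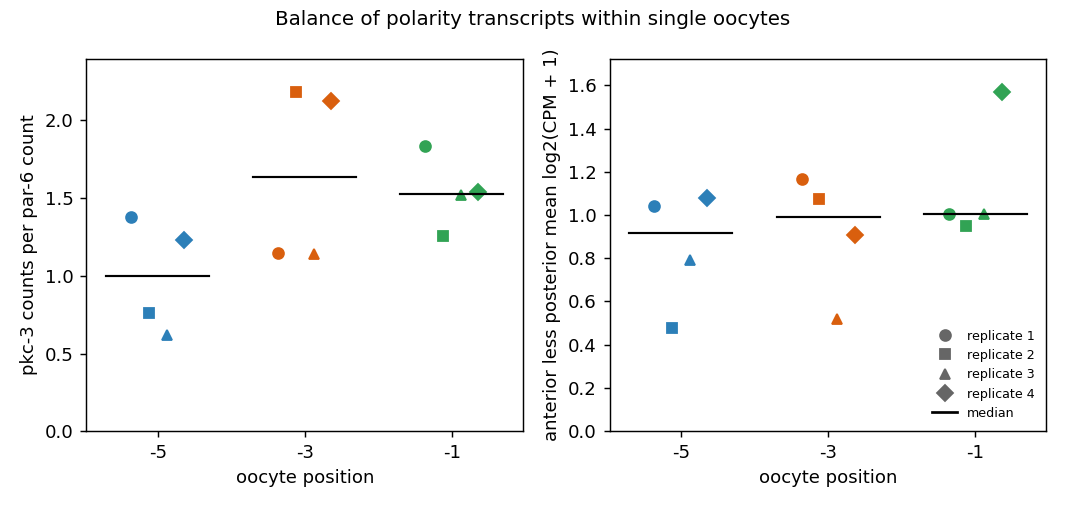
Left, counts of pkc-3 per count of par-6 in each oocyte; right, mean log2(CPM + 1) of the 4 anterior genes less that of the 3 posterior genes. Lines are medians of the 4 oocytes; positions overlap in both, and the highest value on the right is 1.57 in replicate 4 of oocyte -1.

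Levels of different genes were compared per kilobase of exon in the count table, although reads of a 3′ kit do not grow with the length of a transcript. On this scale par-5 came first, with a median over the 12 oocytes of 957.3 CPM per kb, and cdc-42 followed with 103.2 CPM per kb. The adaptor gene par-6 had a median of 62.9 CPM per kb and pkc-3 52.3 CPM per kb, then came par-2 with 33.3, par-3 with 13.6 and par-1 with 9.52 CPM per kb. The last were par-4 with 7.47 and lgl-1 with 6.73 CPM per kb. Only 2 pairs of neighbours in this order had ranges that did not overlap, par-5 above cdc-42 and par-2 above par-3. Though its range overlapped with that of par-6, cdc-42 was the higher per kilobase in all 12 oocytes. The higher of the pair was so in 9 of 12 oocytes for par-6 over pkc-3, in 11 for pkc-3 over par-2, in 9 for par-3 over par-1, in 6 for par-1 over par-4 and in 8 for par-4 over lgl-1. In CPM without length, par-6 was above pkc-3 in 2 of 12 oocytes and par-4 above lgl-1 in 5 of 12, so the order of both pairs turns with the scale. On that scale par-1 was above par-4 in 12 of 12 oocytes. In CPM the ranges of par-2, 60.9 to 134.9, and par-3, 33.0 to 111.3, overlapped, with par-2 above in 10 of 12 oocytes. Their lack of overlap per kilobase thus also turns with the scale.

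The spread of most members between oocytes lay below the median of genes that averaged 20 CPM or more. Those genes were not matched in level to the members, whose means reached 1228 CPM for par-5. As many genes lie below a median as above it, so most of 9 members below it is not far from the background. The coefficient of variation over the 12 oocytes was 15.4% for par-6, 16.05% for par-5 and 18.4% for cdc-42, against a median of 26.8% over the same 5185 genes. It was 21.1% for par-2, 22.2% for par-1, 23.6% for pkc-3 and 24.6% for lgl-1. Besides par-4, only par-3 lay above the median, at 32.4%. Error in counting reads alone would give 0.774% for par-5, 5.83% for lgl-1 and 14.5% for par-4, each under the spread seen. As reads carry no tag for single molecules, this leaves out error in the molecules captured. The rest of the spread is therefore not a measure of differences between oocytes.

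Some genes outside the list followed a member closely over the 12 oocytes, by the Pearson correlation of log2 levels among genes of at least 20 CPM on average. The nearest to pkc-3 was ostb-1, a gene of the oligosaccharyltransferase complex, at 0.93 with and without the 2 oocytes of -3. For par-5 it was nhr-12, a nuclear hormone receptor gene, at 0.92, and for par-3 it was dnj-5, a DnaJ family gene, at 0.86. For cdc-42 it was parg-1, a poly(ADP-ribose) glycohydrolase gene, at 0.87, followed by mex-5 at 0.85, whose protein is distributed unevenly along the axis by PAR-1. The nearest to par-6 was csc-1, a gene of the chromosomal passenger complex, at 0.87. For par-1 it was the proteasome subunit gene rpn-6.1 at 0.87, or 0.74 without the 2 oocytes. For par-2 it was F49C12.12 at 0.82 and for lgl-1 it was Y39B6A.33 at 0.87. The nearest to par-4 was ZK512.2 at 0.93, which was 0.74 without the 2 oocytes. Each is the highest of many correlations over 12 points that share their libraries.

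Genes that act before, with or after the PAR proteins were read from 6 lists of related genes. The outputs of polarity in the cytoplasm, mostly RNA-binding proteins that end up in the front or the rear of the embryo, had 10 of 11 genes higher in oocyte -1 than in oocyte -5, with a median log2 ratio of 0.22. Of all kept genes, 49.0% were higher. None of the 11 was past 2-fold or had oocytes apart in this comparison, against 12.8% and 5.53% of all kept genes. The highest was mex-3, at 0.39 on the log2 scale. In this list nos-2, a Nanos gene needed by germ cell precursors, was past 2-fold with oocytes apart. It stood at 158, 417, 296 and 268 CPM in oocyte -1, at 960, 495, 717 and 608 CPM in oocyte -3 and at 153, 434, 402 and 188 CPM in oocyte -5. All -3 oocytes lay above all the others, and the log2 ratio was -1.42 for -1 against -3 and 1.33 for -3 against -5. Without the 2 oocytes of -3 that stood apart these were -1.09 and 0.999, the second just inside 2-fold.

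The other lists had 0 genes past 2-fold between oocytes -1 and -5, where 12.8% of all kept genes were past it. In a list of 10 to 15 genes that share corresponds to few genes. A count of 0 in a list is therefore not far from the background. Genes of symmetry breaking and cortical flow had a median log2 ratio of -0.03 over 15 genes, from ani-1, an anillin gene, at -0.36 to air-1, the Aurora A kinase gene, at 0.22. Regulators and effectors of CDC-42 and the PAR complex had a median of -0.11 over 15 genes. The lowest was cgef-1, an exchange factor gene for CDC-42, at -0.90, or -1.07 without replicate 4 of oocyte -5, and the highest was toca-1, an F-BAR protein gene, at 0.26. The exchange factor gene was past 2-fold between -1 and -3, at -1.01, where its oocytes of 92.2 to 224 CPM at -3 overlapped with those of 51.7 to 93.4 CPM at -1. Its highest -3 oocyte was replicate 1, one of the 2 that stood apart, and its ratio was inside 2-fold at -0.69 without that oocyte and at -0.83 without both. Partners of PAR-4 and kinases downstream of LKB1 had a median of 0.07 over 11 kept genes, from aak-1, a catalytic subunit gene of the AMP-activated kinase, at -0.29 to aakb-1, a beta subunit gene, at 0.46.

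Genes of spindle positioning had a median log2 ratio of 0.00 over 10 genes between -1 and -5. The highest was gpr-2, at 0.71 with all -1 oocytes above all -5 oocytes, but it is nearly identical to gpr-1, at -0.24, and reads that fit both were not counted, so both are uncertain. The lowest was gpa-16, a G protein gene, at -0.42. Genes of epithelial polarity and junctions, which use the PAR proteins in later tissues, had a median of 0.05 over 11 kept genes, from sma-1, a heavy beta-spectrin gene, at -0.31 to hmp-2, a beta-catenin gene, at 0.34. Between -1 and -3 the medians were 0.40 for spindle positioning and 0.20 for epithelial polarity, and 0.22 and 0.09 without the 2 oocytes of -3. Against position -3 each list had 1 or 0 genes past 2-fold, which were nos-2, cgef-1 and aakb-2, the last with pooled levels of 2.21 to 5.49 CPM. Of all kept genes, 17.9% were past it between -1 and -3 and 17.1% between -3 and -5. For aakb-2 the log2 ratio was 1.31 for -1 against -3 and -1.30 for -3 against -5. It was inside 2-fold without replicate 1 of oocyte -3, at 0.94 and -0.93, and 1.56 and -1.54 without both oocytes that stood apart.

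**Figure D5:**
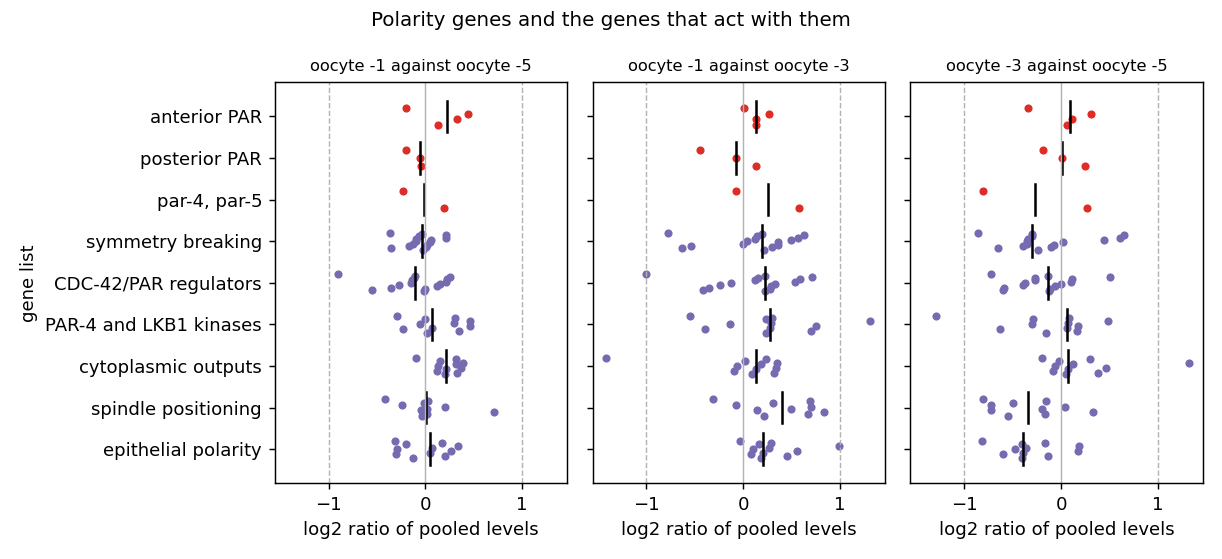
Log2 ratio of pooled levels in the 3 comparisons for the polarity genes (red, by set) and for kept genes of the 6 related lists (purple); black bars are medians and dashed lines mark 2-fold. Between -1 and -5 every point lies inside the dashed lines, and in the comparisons with -3 nos-2 is the farthest outside.

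The labelled cell type was read from marker lists. All 12 oocyte markers averaged at least 1 CPM, and their summed level ranged over 11947 to 18254 CPM among -1 oocytes, 9626 to 19944 CPM among -3 oocytes and 17697 to 23429 CPM among -5 oocytes. Between -1 and -5, 11 of these 12 genes were lower, with a median log2 ratio of -0.51, where 51.0% of all kept genes were lower. Of the sperm markers 8 of 10 averaged under 1 CPM and their sum was between 0.839 and 9.46 CPM. For the gonadal sheath and spermatheca 7 of 10 were under 1 CPM, and the sum ranged over 146.8 to 268.6 CPM among -1 oocytes, 118.9 to 198 CPM among -3 oocytes and 196.8 to 915.6 CPM among -5 oocytes. The highest sum was in replicate 4 of oocyte -5 and came mainly from the innexin gene inx-8, at 672.7 CPM there. Another marker of this list, fln-1, had pooled levels of 137.4, 141.7 and 191.0 CPM at -1, -3 and -5. Muscle markers, 3 of 12 under 1 CPM, summed to 921.4 to 1308 CPM among -1 oocytes, 334.2 to 1163 CPM among -3 oocytes and 445.3 to 985.8 CPM among -5 oocytes. Most of the pooled sum was unc-54, at 831.7, 633.4 and 524.1 CPM at -1, -3 and -5. Of the 9 kept muscle markers, 8 were higher in -1 than in -5, with a median log2 ratio of 0.78. Of all kept genes, 49.0% were higher. Hypodermis and cuticle markers, 4 of 10 under 1 CPM, summed to 149.7 to 187.8 CPM among -1 oocytes, 175.7 to 352.2 CPM among -3 oocytes and 196.7 to 595.4 CPM among -5 oocytes. The -1 and -5 oocytes did not overlap in the cuticle sum. Of the 7 kept genes of that list, 6 were lower in -1 than in -5, with a median log2 ratio of -1.68. The 1 that was higher was lin-26, at 0.13. Oocytes were apart for 2 of the 7, against 5.53% of all kept genes. Intestine markers, 6 of 10 under 1 CPM, summed to between 34.8 and 236.2 CPM and overlapped between positions. Their part in the levels of the polarity genes was not tested.

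In the authors' deposited tables the log2 fold changes of the 9 genes were of similar size. For pkc-3 the deposited table gave 0.43 between -1 and -5, and for par-3 it gave 0.44. For par-4 the authors' deposited table gave -0.77 between -3 and -5 and 0.64 between -1 and -3. For lgl-1 it gave -0.31 between -1 and -3. The only sign that differed was that of cdc-42 between -1 and -3, at -0.07 in the authors' deposited table. These tables were made from the same 12 oocytes, so they are not separate measurements.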

How the data were processed

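Libraries were made with the SMART-seq v4 3′ DE kit, per the labels' protocols. The count table was deposited by the authors as whole reads per gene, not normalized. The tools were cutadapt 1.18 for trimming, FastQC 0.11.5, STAR for alignment and featureCounts 1.5.3, per the submitters' processing notes. The file header gives featureCounts 1.6.4, the WormBase WS271 annotation and no option for strand, multi-mapping or overlapping genes. Reads of antisense genes therefore cannot be told apart, and an opposite gene covers 3.44% of the exon bases of par-3 and less of the others. Coordinates are copied from the count table, and its build was not given in the sources used here. In the authors' deposited DESeq2 1.32.0 tables, log2 fold changes were copied and the other columns were not used.

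Genes were kept with edgeR 4.0.16 (R 4.3.3) by filterByExpr with its defaults, and library sizes were scaled with TMM. A pooled level is the summed count of 4 oocytes over their summed scaled library size. It has an exact Poisson 95% interval and a floor of 3 counts over the group. Single values used a pseudocount of 1 CPM where a log was taken per oocyte. Ratios were tested before use on counts simulated around a common profile, in which no oocyte stood apart. That test does not bear on the oocytes of position -3 that did. Libraries of 8358019 to 20446599 counts set the counting precision.

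No test between positions was made, as each library is 1 cell and the labels name no animals. The members, the lists and the naming rule were chosen with earlier results of these data known. All 9 members were named. From each list the genes past 2-fold with oocytes apart were named, and otherwise the highest and the lowest ratio between -1 and -5. Of 149 list names, 1 had no match. Alternatives were DESeq2 1.42.0 size factors, unscaled library sizes, oocytes weighted equally, no filter, a fold of 1.5, each oocyte left out, and both oocytes of -3 that stood apart left out. Of the 9 members, 2 have the same span in the WBcel235 annotation, which gave the biotypes and ends. No gene sequence was used here.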

Additional observations from a re-analysis of the deposited data

Results flagged for a closer look

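Values in each position were checked for a single oocyte far from the other 3, by the gap to its nearest neighbour over the whole range. Of 30 values checked, 3 passed Dixon's 95% limit, and chance alone gives about 1 in 20. The anterior less posterior values are built from the same genes, so the 30 are not independent. No excess over chance can be read from the 3.

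The level of par-2 was 111.4 CPM in replicate 4 of oocyte -5, where the other 3 oocytes lay within 91.7 to 93.3 CPM. It was within the range of the -1 oocytes, 60.9 to 134.9 CPM. The summed level of the 10 gonadal sheath and spermatheca markers was 915.6 CPM in that oocyte and 196.8 to 232.1 CPM in the other 3, mostly through inx-8, and 7 of the 10 markers averaged under 1 CPM. That oocyte was also the highest of its position in the sums of muscle markers, at 985.8 CPM, and of hypodermis and cuticle markers, at 595.4 CPM. Among -1 oocytes, replicate 1 was likewise the highest in both the sheath sum and par-2, at 268.6 and 134.9 CPM. Among -3 oocytes, replicate 3 had the highest sheath sum, 198 CPM, and the lowest par-2 level, 69.5 CPM. The part of other cells in the par-2 level was not tested.

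The level of par-5 was 1715 CPM in replicate 3 of oocyte -3, where the other 3 lay within 1193 to 1240 CPM. This oocyte is one of the 2 that stood apart over all genes.

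The mean log2 level of the anterior genes less that of the posterior genes was 1.57 in replicate 4 of oocyte -1, where the other 3 lay within 0.95 to 1.01. In that oocyte par-2, at 60.9 CPM, and lgl-1, at 15.5 CPM, were at their lowest of the 12 oocytes.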

How the results depend on the processing

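No paired analysis was possible because the results come from no test and the labels do not say that a replicate number marks a shared animal. The deviations of same-numbered oocytes from the position means correlated over 0.1 in 1 of 12 pairs (-0.14 to 0.14), against 9 of 36 other pairs. Of the 12 oocytes, 3 correlated best with their own number. Such correlations cannot show whether oocytes of the same number came from 1 animal. Replicates of par-4 had the same order, 1, 3, 2 and 4 from low to high, at all 3 positions, as did 0.172% of kept genes. Its -3 oocyte was the lower in 4 of 4 same-numbered pairs with -5, where 14.5% of kept genes had all 4 one way. Between -1 and -5, pkc-3 was higher and par-6 lower in 4 of 4 such pairs, and 16.8% of kept genes had all 4 one way. Of 207 values that summarise the comparisons under an alternative, 187 stayed within the spread between oocytes or the same count. Some could not move: scaling cancels in the anterior less posterior ratio. An oocyte outside a comparison bears on it only through the scaling and the filter, for single members too. The 187 are therefore no measure of how firm the results are. The median log2 ratio of the members lay between -0.075 and 0.26 for -1 against -5 when single oocytes were left out, with 0.26 without replicate 4 of oocyte -5, and between -0.13 and 0.13 for -1 against -3. For -1 against -3 it was 0.33 with unscaled library sizes and -0.057 when both oocytes of -3 that stood apart were left out. Unscaled library sizes moved the median of all kept genes from 0.02 to 0.21 in that comparison and from -0.01 to -0.13 for -3 against -5. The count of members past 2-fold was 0 to 1 in both comparisons with -3 when single oocytes were left out and 1 in both with oocytes weighted equally, each time par-4. With a fold of 1.5 it was 1 for -3 against -5. The count of members with oocytes apart was 0 to 1 in each comparison when single oocytes were left out, by par-6 or par-5. With unscaled library sizes it was 1 in both comparisons with -3, by par-6. Without both oocytes of -3 it was 1 for -1 against -3, by par-6, and 2 for -3 against -5, by par-6 and pkc-3. Fewer oocytes lie apart more easily, and no share of all kept genes was computed for these settings. These counts are therefore not read as differences between positions. Of 459 alternative values of single members, 5 moved by more than the spread between oocytes, for par-6 and par-2, and 43 took the other sign, which with ratios near 0 needs little change. The values of related lists and genes without oocytes of -3, and with 1 oocyte left out, were chosen after seeing the data. Except for par-4, each member had at least 205 counts in every oocyte. As reads carry no tag for single molecules, these counts do not give the number of molecules captured.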
